A study of Caenorhabditis elegans with 2 samples.

Results

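The 10 genes described here encode proteins of ribosomal RNA processing in the nucleolus of Caenorhabditis elegans: fib-1, nol-56 and nol-58 of the box C/D ribonucleoprotein, nol-10, nol-6 and wdr-46 of small subunit assembly, and pro-1, pro-2, pro-3 and nol-9 of large subunit assembly. They were chosen by name from 19973 protein-coding genes with earlier results of these peak lists known, and their peaks were selected by summit position, so the counts and signals below are descriptions and carry no test. A peak was counted for a gene's promoter when its summit fell in the 1000 bp before a transcript start of that gene or the 200 bp after it. Whole animals mix germline and somatic nuclei, so no peak can be placed in a tissue.

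The data are ChIP-seq peak lists for K11D2.4, a protein with a C2H2-type domain by its RefSeq product, in 1 group of 2 biological replicates. The animals were whole young adults of strain RW12320, aged 62 hours and synchronised by starving first-stage larvae after bleaching, and both replicates carry the allele st12320, in which CRISPR placed TY1::EGFP::3xFLAG on K11D2.4 at its own locus. Chromatin was sonicated to 200 to 800 bp and precipitated with an antibody against GFP, although the labels' antibody entry reads K11D2.4. Neither an input nor an untagged control was used here, and the depth behind each peak is unknown.

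Ribosomal RNA is transcribed and trimmed in the nucleolus. Box C/D ribonucleoproteins are built from a guide RNA and proteins that include fibrillarin, NOP56 and NOP58. They place methyl groups on the riboses of ribosomal RNA and, as the U3 particle, take part in its cleavage. Further assembly factors then shape the small and the large subunit before export to the cytoplasm. In worms, growth and the proliferating germline draw heavily on this pathway, and the pro genes are named for their effect on germline proliferation.

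The sequences at the 4 pooled summits that lay between genes are given for the peaks of fib-1, pro-1, wdr-46 and nol-10. Each is the 101 bases around the summit in the pooled list, read on the strand of the gene, from RefSeq's copy of build WBcel235 (ce11). Capitals mark CGCAG on either strand, the stretch common to CGCAGA and ACGCAG, 2 words taken from earlier results on the whole list.
fib-1 (chrV:15002254-15002354, minus strand): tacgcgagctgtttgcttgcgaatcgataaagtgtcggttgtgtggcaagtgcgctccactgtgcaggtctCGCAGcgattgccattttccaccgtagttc
pro-1 (chrII:10542087-10542187, minus strand): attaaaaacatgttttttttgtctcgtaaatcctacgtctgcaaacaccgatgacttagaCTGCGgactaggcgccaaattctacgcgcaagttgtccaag
wdr-46 (chrIV:12371984-12372084, plus strand): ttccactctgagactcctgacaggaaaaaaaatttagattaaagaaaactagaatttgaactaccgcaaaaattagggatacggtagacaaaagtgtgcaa
nol-10 (chrIV:7580390-7580490, plus strand): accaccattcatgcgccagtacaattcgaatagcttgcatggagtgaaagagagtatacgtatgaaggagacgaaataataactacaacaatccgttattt
In fib-1 the capitals begin 21 bases past the summit and in pro-1 10 bases past it. The wdr-46 and nol-10 windows hold no CGCAG on either strand. The windows follow the pooled summits alone. In replicate 2 the nol-10 summit, at -277 bp, lay outside the printed bases. So did the summit of the pro-1 peak in replicate 2's own list, at 17 bp.

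The pooled list named conservative, the main list here, held a promoter peak for 5 of the 10 genes, fib-1, nol-58, nol-10, pro-1 and wdr-46, against 5.78% of all protein-coding genes. These 5 genes had 7 promoter peaks, since nol-58 and pro-1 had 2 each. The members were named with this list known, so nothing is read from the difference between the 2 shares. The other 5 genes, nol-56, nol-6, nol-9, pro-2 and pro-3, had no promoter peak in that list, and none of the 10 genes had a main peak elsewhere within the gene. The second pooled list held peaks for 4 of the 10 (5.97% of all genes) and lacked nol-10. The replicates' own thresholded lists held 3 each: fib-1, nol-58 and pro-1 in replicate 1 (3.39% of all genes) and fib-1, pro-1 and wdr-46 in replicate 2 (4.08% of all genes). At 1 gene, fib-1, a main peak was matched by peaks in the thresholded lists of both replicates.

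**Figure D1:**
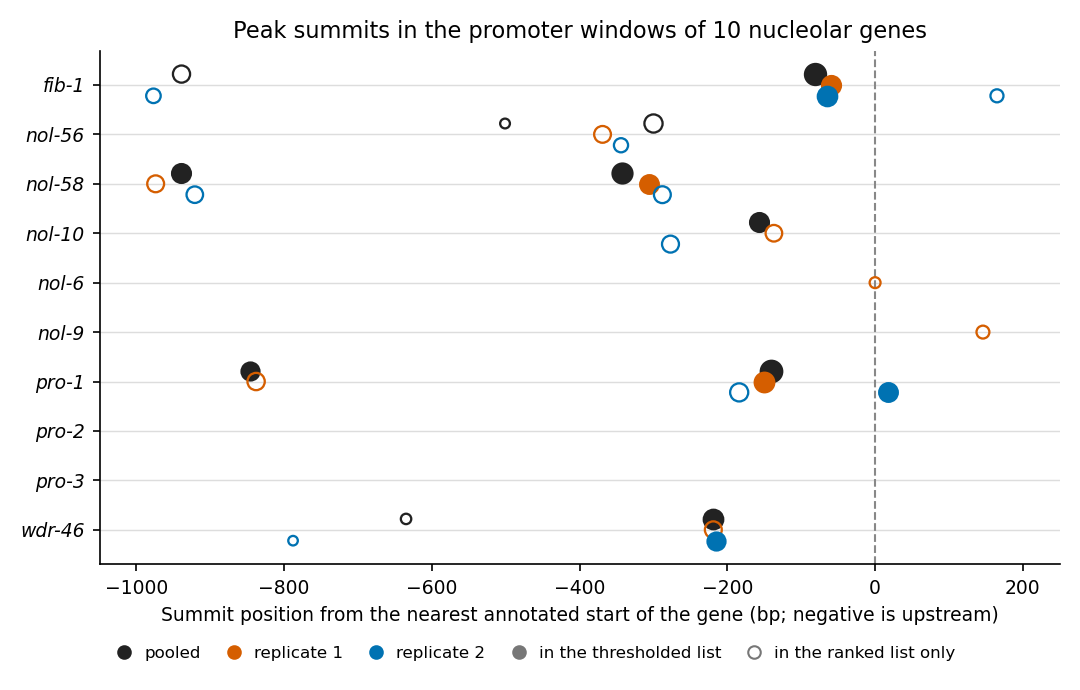
Position of every peak summit in the promoter windows of the 10 genes, in bp from the gene's nearest annotated start (dashed line), for the pooled replicates, replicate 1 and replicate 2. Filled points are in the thresholded list (for the pooled replicates, the main list), open points in the ranked list only, and larger points have a higher deposited signal on a log scale. The filled fib-1 points lie at -81, -60 and -65 bp, its open points lie at -939, -977 and 165 bp, and pro-2 and pro-3 have none.

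Among the box C/D genes, fib-1, which encodes the methyltransferase fibrillarin (WBGene00001423, chrV:15000651-15002223, minus strand), was the gene whose main peak both replicates' own lists held. Its main peak at chrV:15002142-15002465 had a deposited signal, the authors' own value for the peak, of 158 and ranked 390 of 1927. The summit lay 81 bp upstream of the start and between genes. Replicate 1's peak had a signal of 74.3 with its summit at -60 bp, and replicate 2's had 87.2 with its summit at -65 bp. Both were in the replicates' own thresholded lists. A gap of 319 bp separates fib-1 from the divergent mutator gene mut-15. The same peak lay at -239 bp from the mut-15 start, so it counts for both genes and is nearer to fib-1. The ranked lists added weaker fib-1 peaks, with signals of 42.6 at -939 bp in the pooled list and of 20.3 at -977 bp and 14.1 at 165 bp in replicate 2. The upstream ones were nearer to mut-15.

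The gene nol-58 encodes a Nop domain protein of the same particle (WBGene00020915, I:3267094-3269112, plus strand) and had 2 main peaks, both nearer to another gene. The peak at I:3266590-3266913 had a signal of 106, with 67.9 in replicate 1 and 38.7 in replicate 2. Its summit was at -342 bp from nol-58 but 10 bp inside the divergent gene zip-4, a bZIP transcription factor gene, in an exon that is not coding. Replicate 1's own list held this peak and replicate 2's did not. The second peak, at I:3265992-3266315, had a signal of 71.8, with 38.9 in replicate 1 and 35.4 in replicate 2, and was in neither replicate's own list. It lay in an intron of zip-4, at -940 bp from the start of nol-58 and at -297 bp from an internal zip-4 start. With each peak given to the nearest start, nol-58 had no peak.

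Another protein of the particle, NOP56, is encoded by nol-56 (WBGene00010627, chrV:10350466-10352978, minus strand). The gene had no promoter peak in the thresholded lists. The pooled ranked list, in which 58.0% of protein-coding genes have a promoter peak, held 2 there: one at -300 bp with a signal of 58.7, ranking 3827 of 72582, and one at -501 bp with 7.34, ranking 66629. The signal of the first was above the 53.9 of the weakest main peak of the 10 genes, the second peak of pro-1, but its deposited score was 159, against 843 for the pro-1 peak and a lowest score of 830 in the main list. In replicate 1's ranked list the nol-56 peak had a signal of 38.0 at -369 bp and ranked 2489 of 41734. In replicate 2's it had 18.5 at -344 bp and ranked 20199 of 42705. The replicates thus put it at very different ranks, whereas fib-1 ranked 473 and 372 in the same lists. The nearest main summit to nol-56 was at -3137 bp, with sluh-7 as its nearest coding gene. A group of 4 genes annotated as tRNA, snRNA or snoRNA lay within 1000 bp of nol-56, and none lay that near to any of the other 9 genes.

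Of the small subunit assembly genes, wdr-46 (WBGene00009211, chrIV:12372253-12374834, plus strand) had summits within 4 bp of each other in the pooled list and both replicates. It encodes a WD repeat protein whose yeast homologue is part of the small subunit processome. The main peak at chrIV:12371872-12372195 had a signal of 90.2 and lay at -219 bp, in the 400 bp between wdr-46 and ccr-4, the gene before it on the same strand. Replicate 1 had 39.4 at -219 bp and replicate 2 had 54.6 at -215 bp. Only replicate 2's peak was in that replicate's own thresholded list. The ranked lists added weak peaks of 8.21 at -635 bp in the pooled list and 7.05 at -788 bp in replicate 2.

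The processome gene nol-10, which encodes a NUC153 domain protein (WBGene00017989, chrIV:7580597-7583726, plus strand), had a weaker peak. The peak at chrIV:7580278-7580601 had a signal of 71.7, ranked 1636 of 1927 and lay at -157 bp. It stands in the 484 bp between nol-10 and the divergent gene cec-5, a chromodomain gene, at -328 bp from the start of cec-5. Replicate 1 placed the summit at -137 bp (signal 36.0) and replicate 2 at -277 bp (39.9), where cec-5 was the nearer start at -208 bp. Neither replicate's own list held it, and its scores in the ranked lists were 46 in replicate 1 and 441 in replicate 2. The remaining gene of this group, nol-6, whose yeast homologue joins the same complex, had 1 ranked peak, in replicate 1, with a signal of 9.04 at its start and a rank of 39622 of 41734. Its nearest main summit was at -20404 bp.

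Among the large subunit genes, pro-1 held the highest peak of the 10 genes. It encodes a WD repeat pre-rRNA processing protein (WBGene00004185, chrII:10539438-10541996, minus strand). The peak at chrII:10542072-10542214 was 143 bp wide, where 84.0% of main peaks had a width of 324 bp, and it had a signal of 184 and ranked 292 of 1927. Its summit was at -141 bp, in the 424 bp that separate pro-1 from mnk-1, a kinase gene before it on the same strand. Replicate 1 had 1 peak there, with a signal of 93.3 at -150 bp. Replicate 2 had 2 ranked peaks: 57.2 at -184 bp, and 67.8 at 17 bp past the start. Only the one past the start was in replicate 2's own list, and it is 85 bp wide and does not overlap the pooled peak.

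A second main peak of pro-1, at chrII:10542680-10543003, had a signal of 53.9 at -846 bp. Its summit lay within mnk-1, in an exon that is not coding, and within an overlapping ncRNA gene. Replicate 1's peak had a signal of 44.5 at -838 bp. The replicate 2 peak that overlaps it had 32.0 with its summit at -1102 bp, just outside the promoter window, and was in that replicate's own list with a score of 1000.

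The other 3 genes of large subunit assembly had no peak in the thresholded lists. The gene pro-2, a homologue of the yeast nucleolar complex protein Noc2, and pro-3, an SDA1 homologue, had no promoter peak in any of the 7 lists. In the ranked lists, 45.1% (replicate 1) and 46.4% (replicate 2) of all protein-coding genes had one. The nearest main summits were 43965 bp past the start of pro-2 and at -7636 bp from that of pro-3. The polynucleotide kinase gene nol-9 had 1 ranked peak, in replicate 1, 146 bp past an internal start, with a signal of 13.7 and a rank of 33087 of 41734, and its nearest main summit was 19959 bp past a start. Counted over the ranked lists, 8 of the 10 genes had a promoter peak in replicate 1, against 45.1% of all protein-coding genes. The count was 6 in replicate 2 (46.4% of all genes) and 6 in the pooled list (58.0%), the latter near the share of all genes. The 8 in replicate 1 include nol-6 and nol-9, whose peaks ranked 39622 and 33087 of 41734.

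**Figure D2:**
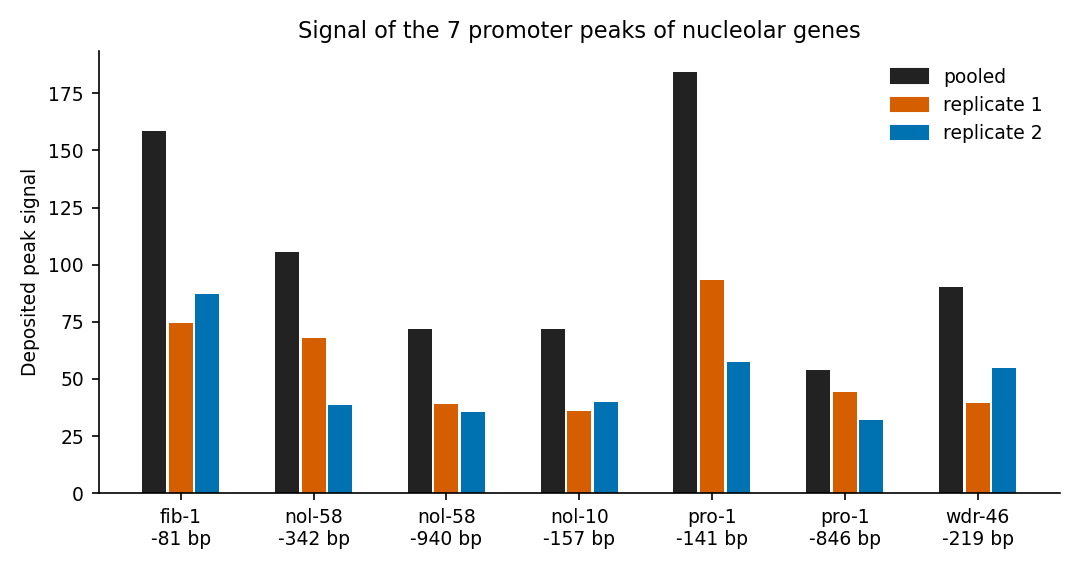
Deposited signal of the 7 promoter peaks of the 10 genes (y axis, starting at 0) in the pooled list and of the highest overlapping peak in each replicate's ranked list, with 1 value per bar and no error bar. The highest bar is pro-1 at -141 bp (184), and at that peak the replicate bars stand at 93.3 (replicate 1) and 57.2 (replicate 2).

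The replicates were compared at these 7 peaks by the log2 ratio of replicate 1 to replicate 2, whose SD over the 1904 main peaks with a ranked peak in both was 0.41 around a median of 0.01. For 3 of the peaks the ratio was within 1 SD of the median: fib-1 (-0.23), nol-10 (-0.15) and the second nol-58 peak (0.14). It was farther off at the other 4, with 0.81 at the first nol-58 peak, 0.71 at the first pro-1 peak and 0.47 at the second, all higher in replicate 1, and -0.47 at wdr-46, higher in replicate 2. By overlap, the own-list membership of the 7 peaks was 1 in both lists, 2 in that of replicate 1 alone, 2 in that of replicate 2 alone and 2 in neither. The second pro-1 peak is matched in replicate 2's list by a peak with its summit at -1102 bp, outside the promoter window. The ratio at the first pro-1 peak uses replicate 2's overlapping peak of 57.2, not its peak of 67.8 at 17 bp. At nol-10 the ratio sets a replicate 1 summit at -137 bp against a replicate 2 summit at -277 bp, which was nearer to cec-5. Over the main list, 36.6% of peaks overlapped both own lists and 36.1% neither.

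**Figure D3:**
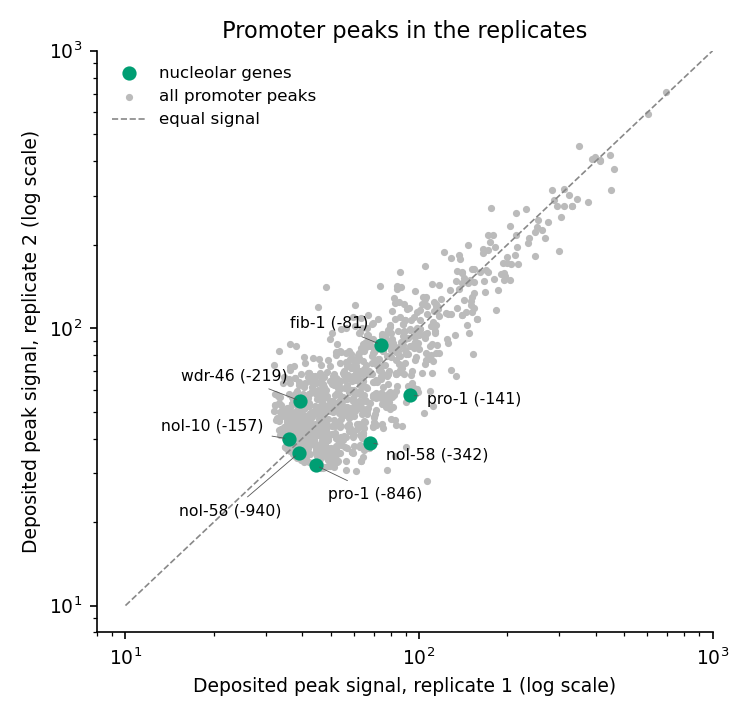
Deposited signal of promoter peaks in replicate 1 (x axis) and replicate 2 (y axis), both on log scales, for the 7 peaks of the nucleolar genes (green, with gene and summit distance in bp) and for all promoter peaks of the main list (grey). The dashed line marks equal signal. The fib-1 peak lies near the line at 74.3 in replicate 1 and 87.2 in replicate 2, and the nol-58 peak at -342 bp lies below it.

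Set among all 997 promoter peaks of the main list, the peaks of the 10 genes were spread from the upper to the lower part of the signal range. Their median signal was 90.2, against 107 for all promoter peaks, whose quartiles were 81.9 and 157, and 5 of the 7 were below the overall median. The first pro-1 peak and fib-1 were above the upper quartile, the first nol-58 peak and wdr-46 lay between the quartiles, and the other 3 were below the lower one. The first peak of pro-1 ranked 183 among promoter peaks and fib-1 ranked 244. The first nol-58 peak ranked 505, next to the middle of the list, and wdr-46 ranked 637. The weakest 3 ranked 861 (nol-58, -940 bp), 862 (nol-10) and 911 (pro-1, -846 bp). For comparison, 36 of 81 cytosolic ribosomal protein genes (44.4%, against 5.78% of all protein-coding genes) had a promoter peak in the same list. Their median signal was 167. The nucleolar peaks ranged from 53.9 to 184.

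**Figure D4:**
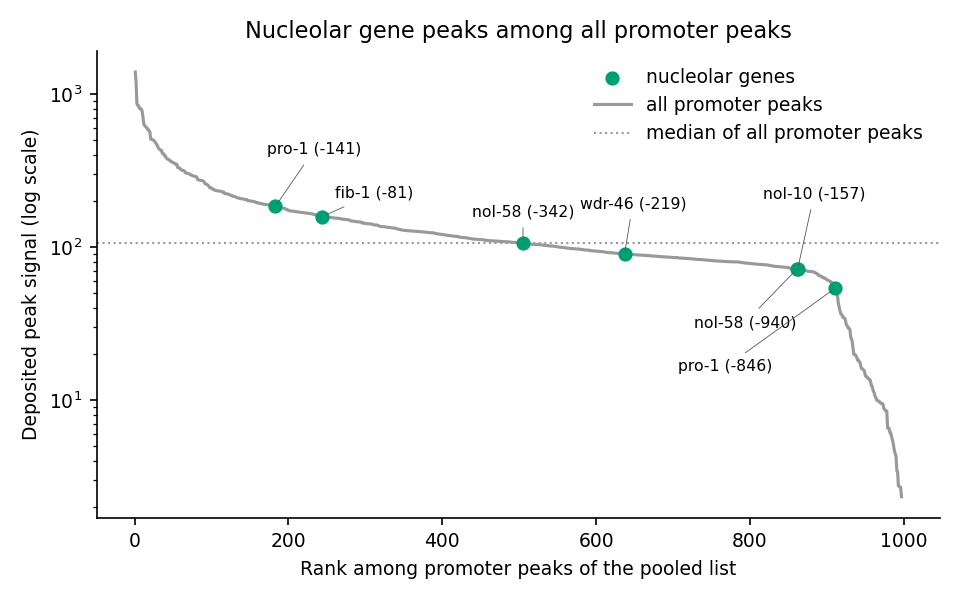
Deposited signal (y axis, log scale) against rank for the 997 promoter peaks of the main list (grey line), with the 7 peaks of the nucleolar genes in green and the median of 107 dotted. The peaks of pro-1 (184) and fib-1 (158) stand above the median and the other 5 lie below it.

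The promoter window takes in 1000 bp before a start and only 200 bp after it, so the rule itself favours upstream summits. All 7 summits were upstream of the start of their gene, from -81 to -940 bp. For comparison, all promoter peaks were measured to the nearest start whose window held them. Their median was -235 bp with quartiles of -460 and -94 bp. By that measure fib-1 (-81 bp) and the second pro-1 peak (-846 bp) lay outside these quartiles. So did the first nol-58 peak, at 10 bp from the zip-4 start, whereas the second, at -297 bp from zip-4, lay inside. The base composition around the summit was measured over the same 101 bases. The GC content was 53.5% at fib-1, 49.5% at the first nol-58 peak and 42.6% at the first pro-1 peak, and 34.7% to 38.6% at the other 4. The median over promoter peaks was 48.5%, so the fib-1 and first nol-58 windows were above it and the others below. All 7 windows were richer in GC than their flanks centred 250 bp away, as were 86.1% of all promoter peaks.

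The words CGCAGA and ACGCAG were searched on both strands. The word CGCAGA was found in 1 of the 7 windows (14.3%), that of the first nol-58 peak, against 14.0% of all promoter windows and 2.71% of their flanks, and ACGCAG in 0 of the 7, against 14.5% and 3.26%. Their common stretch CGCAG, a search chosen after the windows were seen, was found in 3 of the 7 windows (42.9%), against 28.4% of all promoter windows and 7.67% of flanks. The 3 windows were those of the 3 highest peaks, pro-1 at -141 bp, fib-1 and nol-58 at -342 bp. Within 25 bp of the summit CGCAG was in 2 of the 7 (17.85% of all promoter windows), and within 100 bp in 4 (41.1%). As the stretch was chosen with these windows in view, a link between it and signal was not tested. A window without a word shows only that these letters are not within 50 bp of the summit.

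The genes were also compared by what lies upstream. The nearest upstream coding gene ran in the opposite direction for 5 of the 10 (fib-1, nol-58, nol-10, nol-6 and pro-2), of which 3 had a main promoter peak, against 7.96% of all genes so arranged. It ran in the same direction and ended within 500 bp for 4 (pro-1, wdr-46, nol-9 and pro-3), of which 2 had one, against 4.35% of such genes. The last, nol-56, had a gap of 604 bp to a gene on the same strand, and 3.77% of genes with a same-strand neighbour beyond 500 bp had a peak. Among the same-strand genes, the gaps were 424 bp at pro-1 and 400 bp at wdr-46, which had a peak. They were 604 bp at nol-56, 108 bp at nol-9 and 92 bp at pro-3, which had none. Whether the size of the gap bears on a peak was not tested.

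Likeness to other genes was measured over 1144 genes with a main promoter peak. It was the distance between log2 signals in the 2 replicates' ranked lists, which is a match of signal and of nothing else. The nearest to fib-1 were haf-3, an ABC transporter gene, and F57A10.2, a major sperm protein gene, which share 1 peak with 73.8 in replicate 1 and 86.2 in replicate 2. The nearest to pro-1 were rbm-7 (90.5 and 54.3 in replicates 1 and 2) and the RNA helicase gene C24H12.4 (98.9 and 58.8). For nol-58 they were M04G7.2 and pfkb-1.1, and for wdr-46 syd-2 and gcy-33. For nol-10 they were alh-3 and mogs-1, which have identical values, 35.69 in replicate 1 and 40.27 in replicate 2.

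Other genes of ribosome production were taken from a list of 123 names, of which 61 matched the annotation and 59 were kept. Of these 59, 5 had a promoter peak in the main list (8.47%, against 5.78% of all protein-coding genes), a share near the background. The median signal of their 6 peaks was 117, against 107 for all promoter peaks. By role, 2 of 15 genes of the small subunit processome, 1 of 16 of the large subunit, 1 of 6 of RNA polymerase I and 1 of 5 of the snoRNP had one. Of 13 genes of the exosome and rRNA trimming, and of 4 other nucleolar genes, 0 had one.

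The highest of these was at Y48B6A.1, named bop-1 in RefSeq, whose product acts in large subunit assembly (signal 186, at -163 bp). The gene tsr-2, a pre-rRNA processing homologue, had a signal of 148 at -175 bp, with 74.2 in replicate 1 and 67.1 in replicate 2. The RNA-binding gene rbd-1 had 135.0 at -147 bp, but its peak was nearer to T23F6.3 (-79 bp). The ATPase gene ruvb-1, which helps to assemble box C/D particles, had 2 peaks that overlap each other. One had 99.4 at -60 bp and the other 26.0 at -271 bp, nearer to tofu-1. Both were matched to the same replicate values, 37.85 in replicate 1 and 66.26 in replicate 2. A subunit gene shared by RNA polymerases I and III, rpac-19, had 84.8 at -111 bp. The peaks of bop-1, tsr-2 and rbd-1 were in both replicates' own lists, whereas those of ruvb-1 and rpac-19 were in that of replicate 2 alone.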

How the data were processed

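The files used were 7 peak lists on build ce11 from 1 group of 2 ChIP-seq replicates, as thresholded or ranked by the irreproducible discovery rate (IDR), for each replicate and for the pooled replicates. Aligner, peak caller and versions: not given in the sources used here. The signal in each list is a value deposited by the authors, in a scaling they do not state. Whether pooled and replicate signals share a scale is therefore unknown. The score, also deposited, is at most 1000. Each thresholded list was made with 1 file more than its ranked list, per the deposited notes. In the pooled ranked list, 8 columns of values per replicate were not used.

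Summits (column 2 plus column 10) were set against transcript starts of Ensembl release 115 (WBcel235). Ranks were by signal within a list, and 1 shared bp made an overlap. Products and sequences are from RefSeq. The members and lists were chosen with earlier results of these data known, and no test was run. Named were all 10 genes, genes that share a peak with them or lie nearer to it, up to 8 of the other list by highest signal (5 had a peak), and the 2 most alike genes for each member with a main peak. From the name list, 2 genes (tsr-1 and nob-1) were left out because their RefSeq products name another function. The promoter rule was tested on simulated data. Tools were matplotlib 3.10.9, scipy 1.17.1, pandas 2.3.3, numpy 2.4.6 and Python 3.11.15.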

Additional observations from a re-analysis of the deposited data

How the results depend on the processing

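The main counts were 5 genes with a promoter peak, 7 peaks, 4 genes whose own start was the nearest, and 5 other ribosome biogenesis genes. Of the alternatives, 500 bp of upstream sequence, protein-coding transcripts, the nearest start, the second pooled list and RefSeq starts (chosen after seeing the data) kept each count within 1.5 times. The 50% of peaks with the highest signal gave 3 genes (fib-1, nol-58 and pro-1), 3 peaks, 2 genes nearest to their own start and 3 other genes. Peaks in both replicates' own lists gave 1, 1, 1 and 3. With 1 replicate's own list alone the counts were 3 genes and 3 peaks in either, 2 to 3 genes nearest to their own start and 3 to 5 other genes. With 2000 bp upstream, 9 other genes had a peak, and a list by RefSeq product gave 8. The word CGCAGA was in 0% of the 7 windows within 25 bp of the summit. Each of these alternatives has fewer peaks, other genes or another width by construction. Among them, a share of all protein-coding genes is given only for the replicates' own lists (3.39% in replicate 1 and 4.08% in replicate 2). Nothing is therefore read from how these counts moved. The unknown depth limits what the absence of a peak at nol-56, nol-6, nol-9, pro-2 and pro-3 can show: a peak there was not listed, which is not the same as no binding.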

Other observations

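A further set of 46 genes outside both lists has a RefSeq product that names rRNA processing, the nucleolus, snoRNA, the processome, ribosome biogenesis or the exosome, mitochondrial products left out; the search was chosen after seeing the data. Of these, 8 had a promoter peak in the main list (17.4%, against 5.78% of all protein-coding genes), with a median signal of 128 over 9 peaks. They include 2 genes of the Utp12 domain of the small subunit processome, T10B5.3 and F13H8.2. T10B5.3 had a signal of 201 at -223 bp, with 128.5 in replicate 1 and 70.8 in replicate 2. F13H8.2 had 170 at -359 bp, with 63.8 in replicate 1 and 99.98 in replicate 2. The nucleolar complex gene C37H5.5, a homologue of NOC3, had 128 at -204 bp, with 65.0 in replicate 1 and 57.5 in replicate 2. The ribosome biogenesis gene rpl-24.2 had 273 at -147 bp, with 142 in replicate 1 and 126 in replicate 2. The peaks of these 4 genes were in both replicates' own lists. Y49F6B.2 (127 at -176 bp) and F10E9.11 (108 at -61 bp) were in that of replicate 1 alone. The peak of sld-2 (98.4 at -895 bp) was in that of replicate 2 alone and nearer to larp-5 (-71 bp). The highest peak of the set, 437 at nrde-2, is at a gene known for nuclear RNA interference, which the 17.4% includes, and it lay at -920 bp from that gene and nearer to atad-3 (-433 bp). A second nrde-2 peak had 93.0 at -157 bp and was in neither replicate's own list. These genes were named after their values were seen.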
